A study of Mus musculus with 4 samples.

Results

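The mitochondrial ribosomal protein genes were followed in RNA-seq data from OG2ES, a line of mouse embryonic stem cells labelled as derived from the inner cell mass. The members were all rows of the deposited table whose name starts with Mrpl or Mrps followed by a number. They were 78 of 50600 rows, 49 named for the large subunit (Mrpl) and 29 for the small subunit (Mrps), and 5 pseudogene rows were left out. The comparison was between 2 libraries of cells labelled Myh9 KO and 2 libraries of cells labelled WT. All 4 libraries came from cells kept in mES medium with 2i, a pair of kinase inhibitors used to keep such cells naive, with no further treatment per the labels. How the knockout was made, and whether the Myh9 KO cells were 1 clone, is not given in the sources used here, so differences due to missing Myh9 and differences of that line alone cannot be told apart. Nothing in the labels tells whether replicates were separate cultures, so a p-value here says nothing beyond how these 4 libraries spread, and that spread may be technical.

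Mitochondria hold their own ribosome, which translates the few membrane subunits of the respiratory chain that the mitochondrial genome encodes. Its RNAs are transcribed from mitochondrial DNA, while all of its proteins are encoded in the nucleus, made in the cytosol and imported. A core of these proteins descends from bacterial ribosomal proteins, and the rest are particular to mitochondria. Embryonic stem cells in the naive state use both respiration and glycolysis.

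The values were whole numbers that summed to between 992098 and 992317 per library, so they were treated as normalized values and not as read counts, and the depth of the libraries is unknown. Fold changes are Myh9 KO over WT on the log2(value + 1) scale, from limma fitted to the 11231 genes whose value averaged 1 or more, as it did for all 78 members. The words rose and fell are kept for genes that the designed test called at a Benjamini-Hochberg adjusted p under 0.05 and that a second fit called in the same direction. That second fit added a random decimal to each whole number, because equal whole numbers in both replicates leave no spread. Its p-values thus also carry the added decimals, and both fits pool variance over genes. Myh9, the targeted gene, encodes a heavy chain of non-muscle myosin and had values of 9 and 9 in Myh9 KO and 83 and 100 in WT (log2 fold change -3.20 with SE 0.12, limma adjusted p = 0.00675, or 0.0675 and 0.0709 without Myh9 KO 1 and without Myh9 KO 2). The 8 embryonic stem cell markers had values of 51 or more in every library, and 2 of them, Sox2 and Dppa5a, fell. Of 19 markers of feeder fibroblasts, trophoblast and endoderm, 12 were listed at 0 in every library. The summed value of the 8 fibroblast markers was 39 and 39 in Myh9 KO and 53 and 56 in WT, that of the 6 trophoblast markers 27 and 25 against 22 and 23, and that of the 5 endoderm markers 5 and 6 against 1 and 2. Their part in the results was not tested.

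The mitochondrial ribosomal protein genes were called by both tests at shares near those of all tested genes. Of the 78, 4 rose and 3 fell, and 71 were not called by both tests. Over all tested genes 5.12% rose and 5.8% fell. An unadjusted limma p under 0.05 was seen in 27 of the 78 (34.6%), beside 33.2% of all tested genes. Summed over the 78 members, the values were 8493 and 8567 in Myh9 KO and 8797 and 8653 in WT, or 0.856% and 0.863% of all values in Myh9 KO against 0.887% and 0.872% in WT. Both Myh9 KO sums were thus below both WT sums, and the mean sum in Myh9 KO was 97.8% of that in WT. The median log2 fold change over members was -0.03, beside 0.00 over all tested genes, and it was 0.06 after removal of a trend on GC content and transcript length. Fewer cells of a kind and less RNA per cell cannot be told apart in such bulk samples. By the designed test 5 members were higher and 6 lower, where 7.17% of all tested genes were higher and 7.96% lower. By random decimals 6 were higher and 12 lower, where 11.1% of all tested genes were higher and 12.1% lower. In 22 members both Myh9 KO values lay above both WT values and in 28 below, where 26.2% of all tested genes lay above and 27.3% below. The split of the designed test moved with the scaling. By quantile normalization 6 members were higher and 2 lower, where 7.83% of all tested genes were higher and 7.69% lower. By median-ratio scaling 5 were higher and 3 lower, where 8.83% of all tested genes were higher and 8.97% lower. After removal of the trend on GC content and length 15 were higher and 5 lower, where 12.3% of all tested genes were higher and 11.1% lower.

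**Figure D1:**
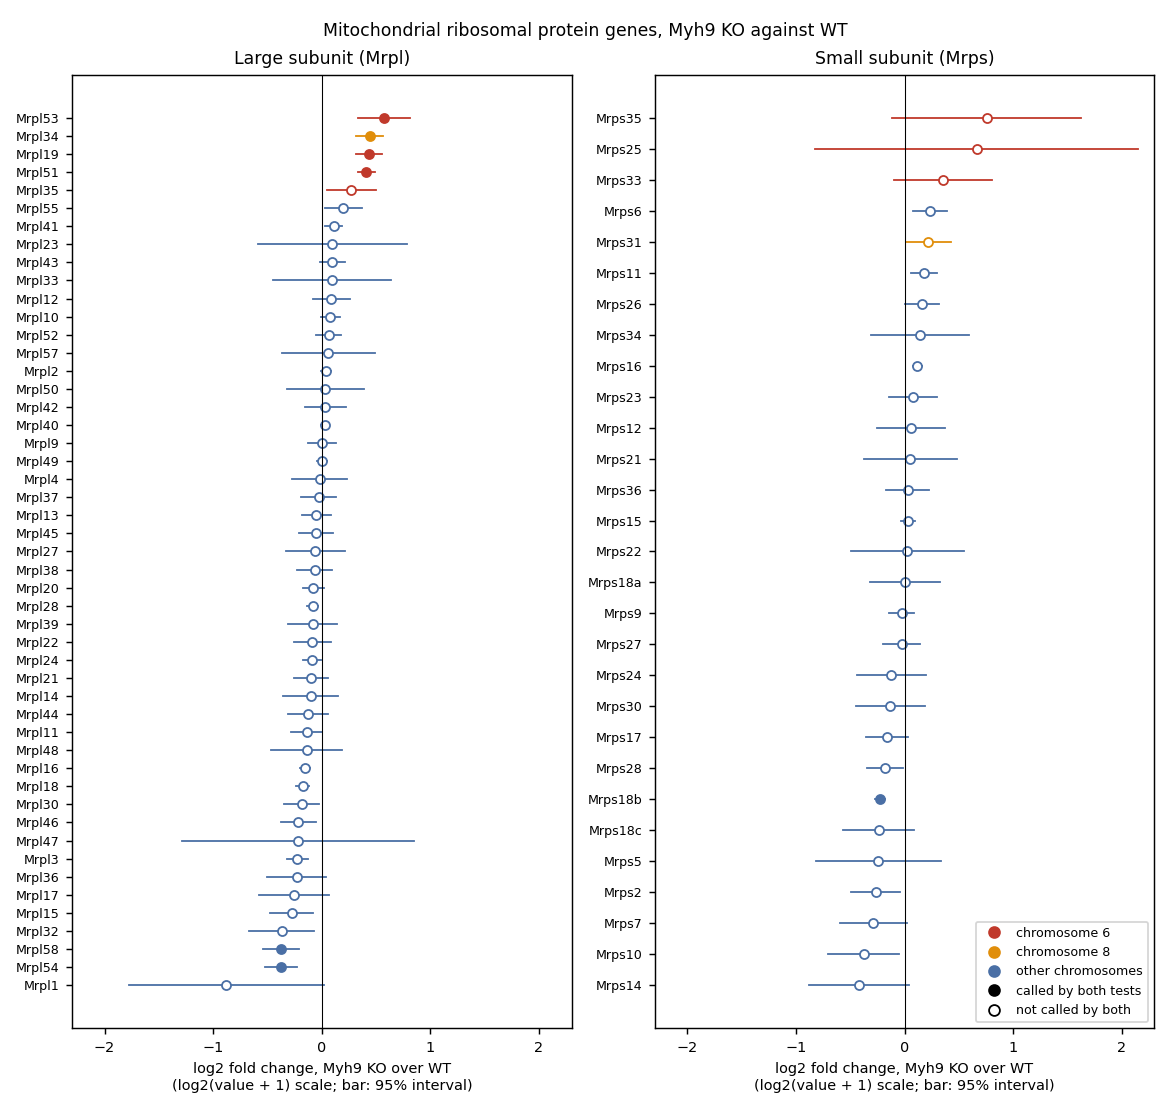
Log2 fold change of each member, Myh9 KO over WT, with its 95% confidence interval from limma, for the 49 large-subunit and 29 small-subunit genes in order of size. Filled points were called by both tests, and the 9 members on chromosomes 6 and 8 are coloured red and orange. All 4 filled points above zero are red or orange.

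In the large subunit 4 of 49 genes rose and 2 fell, where 5.12% of all tested genes rose and 5.8% fell. The median log2 fold change was -0.06 over the 49 (0.04 after removal of the trend on GC content and length). Mrpl51, a protein particular to the mitochondrial ribosome, had values of 148 and 153 in Myh9 KO and 113 and 113 in WT (log2 fold change 0.41 with SE 0.02, limma adjusted p = 0.0144). Mrpl53, another mitochondria-specific protein, had values of 109 and 121 in Myh9 KO, against 78 and 76 in WT (log2 fold change 0.57 with SE 0.07, limma adjusted p = 0.0439). Both genes were higher in each Myh9 KO library than in either WT library, and the fitted folds were 1.33 and 1.49. Mrpl34, the counterpart of the small bacterial protein L34, had values of 160 and 168 in Myh9 KO, against 119 and 122 in WT (log2 fold change 0.44 with SE 0.04, limma adjusted p = 0.0251). Mrpl19, the counterpart of bacterial L19, had values of 34 and 33 in Myh9 KO, against 24 and 25 in WT (log2 fold change 0.44 with SE 0.03, limma adjusted p = 0.0246). On mm10 these genes lie at chr6:125191801-125196269 (Mrpl51), chr6:83109040-83109939 (Mrpl53), chr8:71464959-71465747 (Mrpl34) and chr6:81957851-81965958 (Mrpl19). In these genes the gap between the groups was wider than the gap between replicates.

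The fallen members of the large subunit were Mrpl54 and Mrpl58. Mrpl58, also known as Ict1, is a peptidyl-tRNA hydrolase built into the ribosome that can free stalled chains, and its values were 76 and 71 in Myh9 KO, against 97 and 94 in WT (log2 fold change -0.37 with SE 0.05, limma adjusted p = 0.0487). Mrpl54, a mitochondria-specific protein, had values of 165 and 176 in Myh9 KO, against 220 and 223 in WT (log2 fold change -0.38 with SE 0.04, limma adjusted p = 0.0405). Neither gene's groups overlapped, and the genes lie at chr11:115403752-115412674 (Mrpl58) and chr10:81264713-81266934 (Mrpl54). Mrpl58 lost its call in the designed test without the filter on mean value and with quantile normalization (limma adjusted p = 0.0515 and 0.0683). It was also lost by limma without trend and by the fit without chromosomes 6 and 8 (limma adjusted p = 0.0503 and 0.0539). Mrpl3, Mrpl16 and Mrpl18, all counterparts of bacterial proteins, were called lower by the designed test alone, with log2 fold changes of -0.23, -0.15 and -0.18. Mrpl16 had values of 61 and 61 in Myh9 KO, against 68 and 68 in WT, the case of equal replicates in which the designed test sees no spread, and its adjusted p by limma with random decimals was 0.136.

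Among large-subunit genes called by random decimals alone, Mrpl1, which forms the mobile L1 stalk, had the lowest fold change of all 78. Its values were 5 and 3 in Myh9 KO, against 8 and 8 in WT (log2 fold change -0.88, 95% confidence interval -1.77 to 0.02, limma adjusted p = 0.155, or 0.025 with random decimals). At values this low a change of 1 unit moves the fold strongly. Mrpl32, whose precursor is cut by the mitochondrial m-AAA protease before assembly, had values of 35 and 34 in Myh9 KO and 42 and 48 in WT. Mrpl15, Mrpl17 and Mrpl36 were likewise called lower only by random decimals, and their log2 fold changes ran from -0.28 to -0.23. Mrpl12, the counterpart of the bacterial stalk protein, which has also been found bound to the mitochondrial RNA polymerase, was not called. Its values were 344 and 371 in Myh9 KO and 334 and 338 in WT, and its 95% confidence interval as a fold ran from 0.945 to 1.20. Mrpl20, another member of high value, had 308 and 310 in Myh9 KO, against 319 and 333 in WT. For Mrpl17 the values were 276 and 286 in Myh9 KO, against 360 and 313 in WT.

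In the small subunit none of the 29 members rose and Mrps18b fell, where 5.12% of all tested genes rose and 5.8% fell. The median log2 fold change was 0.02 over the 29 members. It was 0.07 after removal of the trend on GC content and length and -0.03 without chromosomes 6 and 8. Mrps18b had values of 217 and 217 in Myh9 KO, against 256 and 252 in WT (log2 fold change -0.23 with SE 0.01, limma adjusted p = 0.0154, or 0.0501 after removal of the trend on GC content and length). It lies at chr17:35910379-35916389 and is 1 of 3 mammalian relatives of bacterial S18, and the other 2 were not called. Mrps18c had values of 108 and 99 in Myh9 KO, against 130 and 115 in WT, so its groups did not overlap (log2 fold change -0.24 with SE 0.09, limma adjusted p = 0.225). Mrps18a had overlapping values of 118 and 134 in Myh9 KO and 130 and 121 in WT, with a log2 fold change of 0.00 (SE 0.09).

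Mrps16, the counterpart of bacterial S16, was called higher by the designed test alone, with values of 273 and 273 in Myh9 KO, against 250 and 253 in WT (log2 fold change 0.12, limma adjusted p = 0.0329, or 0.108 with random decimals). Mrps2, Mrps7, Mrps10 and Mrps14, all of bacterial type, were called lower by random decimals alone, with log2 fold changes between -0.42 and -0.27. Mrps14 had values of 59 and 48 in Myh9 KO, against 73 and 70 in WT, and Mrps10 had 85 and 79 in Myh9 KO, against 114 and 100 in WT. Mrps12, the counterpart of the bacterial decoding-site protein S12, had values of 212 and 226 in Myh9 KO and 197 and 224 in WT, which overlapped. Mrps6, the counterpart of bacterial S6, had values of 54 and 57 in Myh9 KO, against 46 and 48 in WT, and was called by neither test. Mrps35 and Mrps33, both particular to mitochondria, were called higher by random decimals alone. Mrps35 had values of 58 and 50 in Myh9 KO, against 38 and 26 in WT (log2 fold change 0.76, 95% confidence interval -0.11 to 1.63, limma adjusted p = 0.177, or 0.0109 with random decimals), and its WT libraries stood well apart. The same was true of Mrps25, at 43 and 34 in Myh9 KO and 33 and 17 in WT, the widest log2 gap between WT replicates of any member (log2 fold change 0.67 with SE 0.43).

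**Figure D2:**
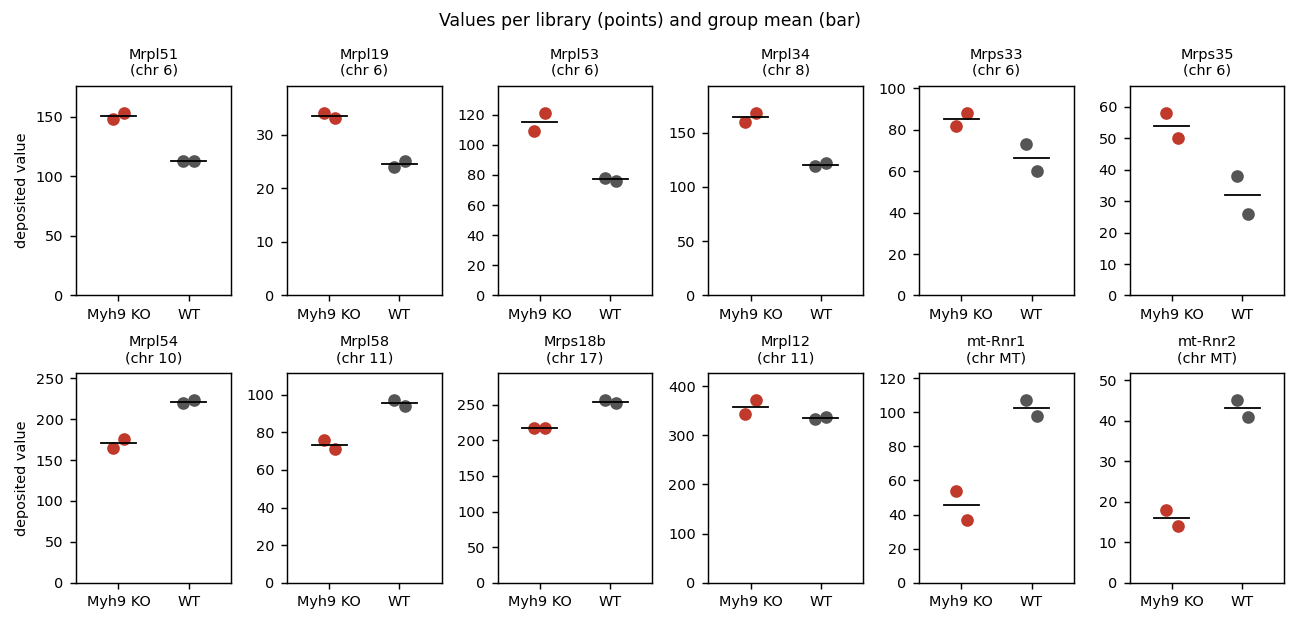
Deposited value of each library (points) and group mean (bar) for the 7 members called by both tests, for Mrps33, Mrps35 and Mrpl12, and for the mitochondrial ribosomal RNAs mt-Rnr1 and mt-Rnr2, with Myh9 KO left of WT and every axis starting at 0. Mrpl51, Mrpl19, Mrpl53 and Mrpl34 lie higher in both Myh9 KO libraries, and Mrpl54, Mrpl58, Mrps18b and both ribosomal RNAs lie lower.

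A name beginning with Mrps does not always place a protein in the small subunit. In structures of the mammalian ribosome Mrps18a and Mrps30 belong to the large subunit, and Mrps36 was later assigned to the 2-oxoglutarate dehydrogenase complex. Mrps30 had values of 87 and 79 in Myh9 KO and 96 and 86 in WT, and Mrps36 had 99 and 93 in Myh9 KO and 91 and 97 in WT. With the proteins placed by structure, a grouping made after the values were seen, the medians were -0.06 over 51 large-subunit and 0.03 over 26 small-subunit genes. By origin the median log2 fold change was -0.09 over the 29 bacterial-type and 0.00 over the 21 mitochondria-specific genes of the large subunit. In the small subunit it was -0.14 over the 16 bacterial-type and 0.16 over the 9 mitochondria-specific genes. After removal of the trend on GC content and length these 4 medians were 0.00, 0.06, -0.01 and 0.17. Mrps18a and Mrps18b were left out of these classes, and Mrps18b was the only small-subunit gene that fell. The 9 mitochondria-specific genes of the small subunit include Mrps25, Mrps33 and Mrps35 on chromosome 6 and Mrps31 on chromosome 8. These differences between classes were not tested.

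The 4 genes that rose all lie on chromosomes 6 and 8. Chromosome 6 holds 7 members and chromosome 8 holds 2, and in each of these 9 both Myh9 KO libraries were higher than both WT libraries. The tested genes of these chromosomes as a whole also had positive fold changes, with a median log2 fold change of 0.45 over 555 genes of chromosome 6 and 0.21 over 646 genes of chromosome 8. The members' medians were 0.44 on chromosome 6 and 0.33 on chromosome 8. On chromosome 6, 3 of 7 members rose, where 30.5% of all tested genes of the chromosome rose, and all 7 had values above the WT range, as did 67.6% of all tested genes there. On chromosome 8, 1 of 2 members rose, where 12.5% of all tested genes of the chromosome rose, and both had values above the WT range, as did 52.5% of all tested genes there. Summed over the 9 genes, the values were 710 and 719 in Myh9 KO and 538 and 504 in WT, so the mean sum in Myh9 KO was 137% of that in WT.

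Mrpl35, the counterpart of bacterial L35, had values of 26 and 25 in Myh9 KO, against 20 and 22 in WT (log2 fold change 0.27 with SE 0.06, limma adjusted p = 0.117). Mrps33 had values of 82 and 88 in Myh9 KO, against 73 and 60 in WT (log2 fold change 0.36 with SE 0.13, limma adjusted p = 0.201). On chromosome 8, Mrps31 had values of 50 and 47 in Myh9 KO, against 40 and 43 in WT (log2 fold change 0.22 with SE 0.06, limma adjusted p = 0.139). None of these 3 passed the designed test, although their groups did not overlap.

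On the remaining chromosomes 0 of 69 members rose and 3 fell, where 3.24% of all tested genes rose and 6.24% fell. By the designed test 1 of these 69 was higher (Mrps16) and 6 were lower, where 5.19% of genes of these chromosomes were higher and 8.56% lower. By random decimals 0 were higher and 12 lower, where 7.86% were higher and 13% lower. Of the 69, 21 (30.4%) had an unadjusted limma p under 0.05, as did 31.3% of all tested genes of these chromosomes. The summed values of the 69 were 7783 and 7848 in Myh9 KO and 8259 and 8149 in WT, or 95.3% of the WT mean in Myh9 KO. Over all tested genes of these chromosomes the mean sum in Myh9 KO was 96.5% of that in WT. The median log2 fold change was -0.07 over the 69 members and -0.02 over 10030 genes. By subunit it was -0.08 over 44 large-subunit and -0.03 over 25 small-subunit genes. After removal of the trend on GC content and length the median over the 69 was 0.02.

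**Figure D3:**
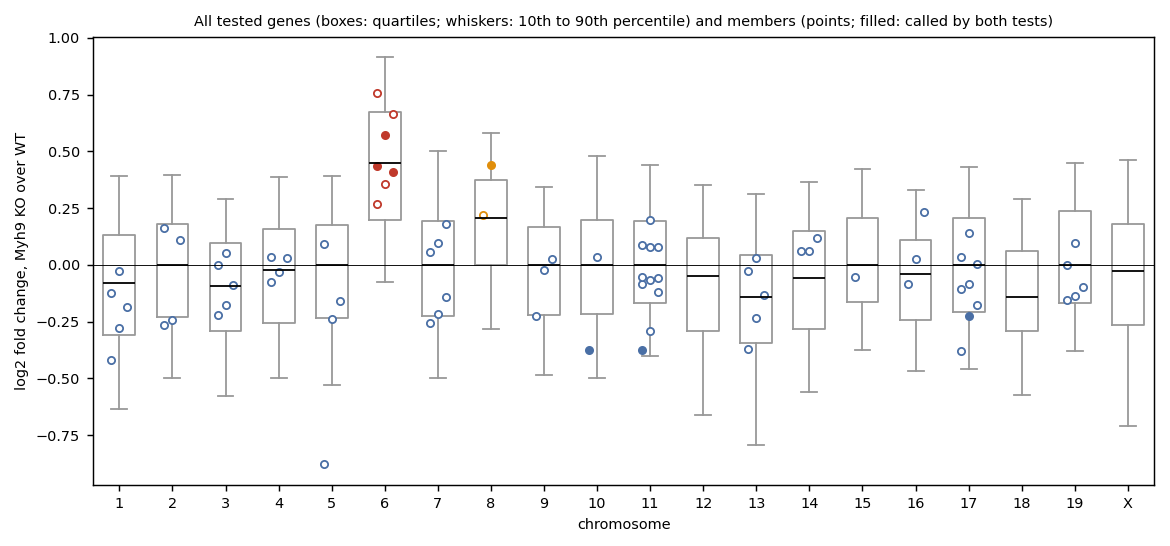
Log2 fold change, Myh9 KO over WT, of all tested genes by chromosome (box: quartiles and median; whiskers: 10th to 90th percentile) with the members as points, filled where both tests called them. The 7 members on chromosome 6 and the 2 on chromosome 8 lie above zero with the boxes of their chromosomes, and the filled points elsewhere lie below zero.

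The calls rest on few libraries. A fit with 1 library left out leaves a single library in 1 group. Its p-values rest on the spread of the other group, on variance pooled over genes and, for random decimals, on the added decimals. With random decimals some members, such as Mrpl53, had a smaller adjusted p in such a fit than with all 4 libraries. A call kept in such a fit is therefore weak support. With any 1 of the 4 libraries left out, random decimals still called Mrpl34, Mrpl51, Mrpl53, Mrpl54 and Mrpl58 each time. Mrpl19 was lost without WT 1 (limma adjusted p = 0.0661), and Mrps18b was lost without WT 1 or WT 2 (limma adjusted p = 0.097 and 0.0707). The designed test kept Mrpl51 in 2 of these 4 fits (without either Myh9 KO library), and it kept Mrpl53 (without Myh9 KO 1), Mrpl54 (without Myh9 KO 2) and Mrps18b (without WT 2) in 1 each. It kept Mrpl19, Mrpl34 and Mrpl58 in 0 of the 4 (limma adjusted p between 0.0633 and 0.232). Without WT 1 it called 0 of the 78 members, where 5.33% of all tested genes were higher and 8.36% lower, and 19 members had an unadjusted limma p under 0.05 (24.4%, beside 26.5% of all tested genes). Without WT 2 it called 0 higher and 1 lower, where 6.2% of all tested genes were higher and 7.09% lower. Without Myh9 KO 1 it called 3 higher and 1 lower, where 8.51% of all tested genes were higher and 9.17% lower. Without Myh9 KO 2 it called 1 higher and 2 lower, where 9.19% of all tested genes were higher and 7.6% lower. For 58 of the 71 members not called by both tests, the 95% confidence interval of the designed test lay within a 1.5-fold change in either direction. The 13 of these 71 with wider intervals were Mrpl1, Mrpl23, Mrpl32, Mrpl33, Mrpl47, Mrps5, Mrps7, Mrps10, Mrps14, Mrps25, Mrps33, Mrps34 and Mrps35. Intervals within 1.5-fold were found for 64 of all 78 members, beside 5437 of 11231 tested genes. They carry only the spread of these 4 libraries, and equal replicates narrow them. Between replicates the median absolute log2 difference over members was 0.07 in Myh9 KO and 0.08 in WT. The median absolute log2 fold change between group means was 0.13. The replicate differences are between single libraries, which spread more than means of 2, so these values are not like for like.

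The measurement of some members is shared with other genes. No strand-marking step is described in the labels' protocol, so whether reads from overlapping exons of opposite genes can be told apart is unknown. In 10 members at least 20% of exon bases also lie in exons of other annotated genes. For Mrpl53 the share was 88.0%, with Gm42688 on the same strand and Ccdc142os on the opposite strand. Gm42688 was listed at 1 and 2 in Myh9 KO and 1 and 1 in WT, and Ccdc142os at 1 and 4 in Myh9 KO and 1 and 0 in WT. It was 77.8% for Mrps34, 69.8% for Mrps25, 36% for Mrpl19 and 30.5% for Mrps18b. The overlapping gene of Mrpl19, Gcfc2, had values of 2 and 1 in Myh9 KO and 0 and 1 in WT, far below those of Mrpl19. Without the 10 overlapping members, 2 of the other 68 rose (Mrpl34 and Mrpl51) and 2 fell (Mrpl54 and Mrpl58). Of all tested genes 5.12% rose and 5.8% fell.

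Processed pseudogenes matter for Mrpl23, a protein at the exit of the peptide tunnel. Its own values were 10 and 14 in Myh9 KO and 11 and 11 in WT, while the intronless copy Mrpl23-ps1 on chromosome 2 was listed at 115 and 118 in Myh9 KO and 115 and 113 in WT. Of the 50-base words of the Mrpl23-ps1 transcript, 92.5% also occur in Mrpl23 transcripts, so the split of reads between the rows is uncertain. The sum of both rows was 125 and 132 in Myh9 KO and 126 and 124 in WT. Mrpl48 and its copy Mrpl48-ps, with 44.6% of its words shared, summed to 23 and 24 in Myh9 KO and 27 and 26 in WT. Genes that share words under other names were not summed in this way. Of a member's own 50-base words, the share found in other genes was 11.8% for Mrpl23. It was 26.9% for Mrpl27 (Gm6304 among others), 22.4% for Mrpl22 (Gm6997) and 13.3% for Mrps33 (Gm5776).

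Upstream stretches are shown for members that rose or fell, to set them beside the letters bound by factors known to regulate nuclear genes of mitochondria. Such genes are classically controlled by nuclear respiratory factor 1 (NRF1), by the ETS-family factor GABP, known as nuclear respiratory factor 2, and by YY1. The RefSeq table of promoters (GRCm38.p6, 250 bases before to 50 after each start) held 75 windows for 69 of the 78 members, Mrpl19 and Mrpl54 not among them. Starts here and in the motif counts are those of RefSeq, and they can lie inside the gene as listed. The Mrpl51 stretch lies wholly inside its listed gene, which starts at chr6:125191801. Those of Mrpl53 and Mrpl12 run past the listed starts, chr6:83109040 and chr11:120484613. The 120 bases before the start are printed 5′ to 3′ on the gene's strand, with the ETS core CCGGAAG in capitals on either strand, for Mrpl51 (chr6:125192080-125192199, plus strand), Mrpl53 (chr6:83108988-83109107, plus) and Mrpl34 (chr8:71464806-71464925, plus), which rose, and for Mrpl58 (chr11:115403632-115403751, plus) and Mrps18b (chr17:35916441-35916560, minus), which fell. In Mrpl12 (chr11:120484517-120484636, plus), which was not called, the capitals mark the NRF1 core instead.
Mrpl51: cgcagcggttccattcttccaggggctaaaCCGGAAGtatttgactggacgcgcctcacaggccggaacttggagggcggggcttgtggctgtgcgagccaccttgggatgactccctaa
Mrpl53: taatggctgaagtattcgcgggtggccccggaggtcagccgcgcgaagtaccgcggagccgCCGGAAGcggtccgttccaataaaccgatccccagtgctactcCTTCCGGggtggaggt
Mrpl34: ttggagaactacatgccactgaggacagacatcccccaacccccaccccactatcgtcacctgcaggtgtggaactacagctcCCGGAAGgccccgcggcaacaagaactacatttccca
Mrpl58: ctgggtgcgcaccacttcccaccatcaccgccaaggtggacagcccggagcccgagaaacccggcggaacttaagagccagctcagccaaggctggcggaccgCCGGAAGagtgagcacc
Mrps18b: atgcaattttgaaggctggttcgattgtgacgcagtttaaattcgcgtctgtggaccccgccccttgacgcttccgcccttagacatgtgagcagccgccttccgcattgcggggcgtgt
Mrpl12: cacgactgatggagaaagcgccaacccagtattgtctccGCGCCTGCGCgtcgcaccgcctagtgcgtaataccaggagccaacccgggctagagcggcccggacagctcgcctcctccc

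The ETS core was present in the windows of 26 of 69 members, or 26 of 75 windows (34.7%), beside 18.3% of 10722 windows of genes tested here and 8.86% of all 32851 windows. The NRF1 core, searched as GCGCA and GCGC with any 1 base between them, was in 13 of 75 member windows (17.3%), beside 10.3% of windows of tested genes and 4.6% of all. The YY1 letters AAGATGG were likewise in 13 of 75 (17.3%), beside 7.31% of windows of tested genes and 6.34% of all. The TATA letters TATAAA were in 5 of 75 (6.67%), beside 6.62% of windows of tested genes and 13.6% of all. Every motif was searched on both strands, and the letters were chosen after the values of the genes were seen. No 2 motifs overlapped in a member window. In these stretches the 3 members that rose hold the ETS core before the RefSeq start, at 2 places in Mrpl53. Of the 2 that fell, Mrpl58 holds it before the start and once more across the start, and Mrps18b holds it only in the 50 bases after the start, outside the printed stretch. The letters were thus present in members that moved either way.

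Some mitochondrial ribosomal protein genes share a start region with a neighbour read in the opposite direction. For 23 members a protein-coding gene on the other strand started within 1000 bases upstream or overlapped the start by up to 200 bases, and 21 of these neighbours were tested. The starts used for these distances are those of the GENCODE annotation, not of RefSeq. Of these 21, 1 rose and 0 fell, where 5.12% of all tested genes rose and 5.8% fell. On chromosome 6, 30.5% of all tested genes rose. In 1 pair both genes were called. Mrpl51 lies 100 bases from Ncapd2, a subunit of condensin I, which had values of 334 and 351 in Myh9 KO, against 189 and 211 in WT (log2 fold change 0.77 with SE 0.08, limma adjusted p = 0.0332), and both lie on chromosome 6. With 1 library left out, the adjusted p of Ncapd2 by limma was between 0.0817 and 0.178 in the designed test and at most 0.000932 with random decimals. For the 2 genes that fell and have such a neighbour, the neighbour was not called: Apba3, beside Mrpl54, had values of 58 and 57 in Myh9 KO and 60 and 56 in WT, and Ppp1r10, beside Mrps18b, had 88 and 112 in Myh9 KO and 92 and 99 in WT. Sars2, the mitochondrial seryl-tRNA synthetase beside Mrps12, had values of 53 and 57 in Myh9 KO and 50 and 49 in WT, and Ndufs6, a complex I subunit beside Mrpl36, had 479 and 480 in Myh9 KO and 495 and 476 in WT. Psma2, a proteasome subunit beside Mrpl32, had 305 and 274 in Myh9 KO, against 359 and 352 in WT, and was called lower by random decimals alone, as was Mrpl32. Of the 21 pairs, 10 had fold changes of the same sign and 9 of opposite sign, and in 2 a fold change was 0.

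Members of low GC content had lower fold changes than those of high GC content, as did tested genes as a whole. Over the 26 members with 38.6% to 46.9% GC the median log2 fold change was -0.14, beside -0.13 over all tested genes in that range. Over the 26 with 52.5% to 60.4% GC it was 0.03, beside 0.08. The same order was seen between the Myh9 KO replicates, where the median log2 difference of Myh9 KO 2 over Myh9 KO 1 was -0.05 over the 26 members of lowest GC content and 0.07 over the 26 of highest. After removal of the trend on GC content and length, the 4 genes that rose and Mrpl54 and Mrpl58 kept their calls in the designed test, and Mrps18b did not (limma adjusted p = 0.0501). Mrpl15, the member with 40.0% GC called lower by random decimals alone, then had a log2 fold change of -0.09, against -0.28 as deposited. Whether base composition, RNA quality or the cells account for this order was not tested.

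**Figure D4:**
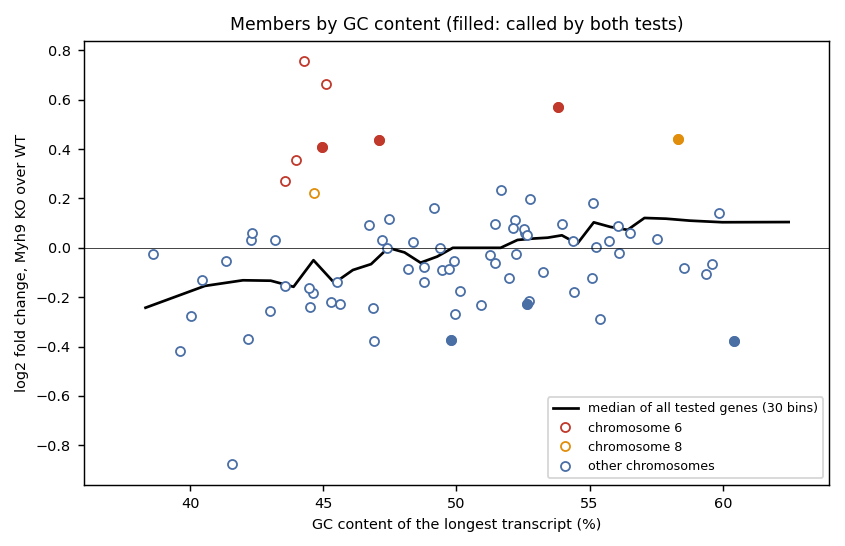
Log2 fold change, Myh9 KO over WT, of each member against the GC content of its longest annotated transcript, with the running median of all tested genes as a line; filled points were called by both tests. The line climbs with GC content, most members of other chromosomes lie around it, and those of chromosomes 6 and 8 lie above it.

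Both RNAs of the mitochondrial ribosome had lower values in Myh9 KO than in WT libraries. The large ribosomal RNA mt-Rnr2 fell, with values of 18 and 14 in Myh9 KO, against 45 and 41 in WT (log2 fold change -1.38 with SE 0.16, limma adjusted p = 0.0421). With 1 library left out, the designed test did not call it (limma adjusted p between 0.0691 and 0.221), while random decimals called it each time. The small ribosomal RNA mt-Rnr1 had values of 54 and 37 in Myh9 KO, against 107 and 98 in WT (log2 fold change -1.18 with SE 0.24, limma adjusted p = 0.0959, or 0.00108 with random decimals). These 2 genes were added after the values were seen, have a median GC content of 35.6%, and were read from libraries enriched for polyadenylated RNA. After removal of the trend on GC content and length their median log2 fold change was -0.83, beside 0.06 over the 78 protein genes. The difference between the RNAs and the proteins was not tested as such.

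Few other genes of mitochondrial translation were called. Of 69 genes in 4 lists, 68 were tested and 1 rose, where 5.12% of all tested genes rose, and none fell, where 5.8% did; limma called 2 higher and 0 lower in the designed test, 3 higher and 1 lower with random decimals, and 11 (16.2%) had an unadjusted p under 0.05, as did 33.2% of all tested genes. Among the 20 synthetases and amidotransferase subunits, Lars2 (132 and 133 in Myh9 KO, against 97 and 83 in WT) and Cars2 (51 and 56 in Myh9 KO, against 39 and 35 in WT) were called higher and Qrsl1 lower by random decimals alone, and the median log2 fold change was 0.00.

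Of the 5 ribosomal proteins that carry other names (Dap3, Ptcd3, Aurkaip1, Chchd1 and Gadd45gip1), limma called 0 (1 at an unadjusted p under 0.05, and 0 by random decimals), with a median log2 fold change of 0.12. Dap3, a small-subunit GTP-binding protein, had values of 180 and 169 in Myh9 KO, against 163 and 157 in WT. Among 27 assembly and RNA-processing genes Ybey, an endonuclease, was called by the designed test alone (5 and 5 in Myh9 KO, against 4 and 4 in WT), and the median was 0.01. Of 17 translation factors and messenger RNA partners 16 were tested and limma called 0 (1 at an unadjusted p under 0.05, and 0 by random decimals), with a median of 0.02. Tufm, the elongation factor that brings aminoacyl-tRNA to the ribosome, had values of 272 and 268 in Myh9 KO, against 249 and 235 in WT (limma adjusted p = 0.121), and Oxa1l, which inserts the new proteins into the inner membrane, had 83 and 92 in Myh9 KO, against 99 and 95 in WT (limma adjusted p = 0.284).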

How the data were processed

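Whole-number values per gene in 4 RNA-seq libraries were analysed, 2 labelled Myh9 KO and 2 WT. The authors deposited 1 table with a score per gene and library, whose unit is not named; since the totals were nearly equal, they were not treated as raw counts. Bowtie2 2.2.5, RSEM 1.3.0, bcl2fastq and the builds mm10 and hg38 appear, with no role given, per the submitters' processing notes. Per the labels' protocols, polyadenylated RNA was selected and random hexamers primed the cDNA. With no depth given, no counting interval was computed, and since a normalization per length is not stated, levels were not ranked between genes.

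Members were found by name in the table. Their coordinates are those of the table; 50376 identifiers were found in GENCODE vM21 (GRCm38, mm10), which had the same gene coordinates for 93.0% of these and for 66 of the 78 members. Exon overlaps, neighbours, GC content and shared 50-base words came from that annotation.

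The design named limma on log2 values for a table that was not counts: limma-trend, run with R 4.3.3 and limma 3.58.1, took log2(value + 1) of genes averaging at least 1, no replicate block, Benjamini-Hochberg over 11231 genes, threshold 0.05. Random decimals between 0 and 1 were added in 25 draws and the median adjusted p was used. Both were tested on simulated data. Named members were those called by either test, the 5 highest and 5 lowest fold changes and 3 highest values of each subunit, Mrpl12 and the Mrps18 paralogs, and up to 4 called genes of each other list; further genes named were chosen after their values were seen. One called gene of the other lists is left out of the text. The members and lists were chosen with earlier results of these data known.

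Alternatives were pseudocounts of 0.5 and 4, no filter and a mean of at least 5, quantile and median-ratio scaling, removal of the trend on GC content and length, a replicate block, limma without trend, each library left out, and the fit without chromosomes 6 and 8.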

Additional observations from a re-analysis of the deposited data

How the results depend on the processing

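The designed test called 9 large-subunit and 2 small-subunit members. Of all tested genes the designed test called 7.17% higher and 7.96% lower, and random decimals 11.1% and 12.1%. After removal of the trend on GC content and length the designed test called 12.3% higher and 11.1% lower. Without chromosomes 6 and 8 the designed test called 4.86% higher and 8.1% lower, and random decimals 7.31% and 12.3%. The large-subunit count was 0 with the replicate block, 4 without chromosomes 6 and 8, and between 0 and 4 with 1 library left out (6 to 11 by random decimals). The small-subunit count was 7 with random decimals, 9 after removal of the trend on GC content and length, 0 with the replicate block, and 0 to 1 with 1 library left out. For alternatives chosen after seeing the data it was 1 for calls by both tests, 1 without members overlapping other genes, 5 by random decimals without chromosomes 6 and 8, and 3 to 8 by random decimals with 1 library left out. The large-subunit median of -0.06 was 0.038 after removal of that trend, -0.080 without chromosomes 6 and 8 in either fit, and between -0.072 and -0.040 with 1 library left out (-0.036 by random decimals without Myh9 KO 1). The small-subunit median of 0.024 was 0.070 after removal of that trend, -0.025 without chromosomes 6 and 8 in either fit, and between -0.015 and 0.00080 with 1 library left out (-0.016 without WT 1 and -0.014 without Myh9 KO 1 by random decimals). Among other translation genes 2 were called, 4 with random decimals, 8 after removal of the trend, 0 with the replicate block, 3 to 6 with 1 library left out and 2 to 4 by random decimals with 1 library left out. The log2 fold change of Myh9 was -3.20, ran from -3.34 to -3.07 with 1 library left out, and lost its call with the replicate block and without either Myh9 KO library (limma adjusted p = 0.0723, 0.0675 and 0.0709). With that block limma called 0 of the 78 members (22, or 28.2%, at an unadjusted p under 0.05, beside 29.9% of all tested genes) and 0.089% of all tested genes higher and 0.392% lower, a share at which 0 of 78 says nothing about the members; random decimals were not run with it. Whether same-numbered libraries were paired is not given in the labels. Deviations of same-numbered libraries correlated at r = 0.0407 over genes, which cannot settle whether they were. Of the named members, 4 that were not called changed sign. After removal of the trend Mrps18c turned to 0.044, Mrpl20 to 0.12 and Mrps18a to -0.057. With 1 library left out Mrps12 ran from -0.033 to 0.15 and Mrps18a from -0.087 to 0.095, by random decimals -0.033 without WT 1 for Mrps12 and -0.049 and -0.086 without WT 2 and Myh9 KO 2 for Mrps18a, which was -0.0037 by quantile normalization. Other pseudocounts and filters left the subunit counts within 1.5 times. The cause of these changes was not tested. With 2 libraries a group and no depth, small changes are not resolved.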
